A study of Homo sapiens with 54 samples.

Results

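A set of 10 genes that sense DNA breaks, signal them and rejoin the ends was followed across NCI-H460 cells exposed to radiation, cisplatin, nicotine and cigarette smoke extract. The set holds the apical kinases ATM, ATR and PRKDC, the checkpoint kinases CHEK1 and CHEK2, the end joining factors XRCC5, XRCC6, XRCC4 and LIG4, and the mediator TP53BP1. Members were the table rows annotated with exactly 1 gene symbol that was one of these names, and the row with the highest mean was kept for a symbol. All 10 were found, each on 1 row, among 18417 genes measured this way. NCI-H460, an established human lung cancer line of the large cell type, was the 1 line used, at a single passage. All cultures had been moved to medium lacking serum before treatment. The 54 arrays, each of a separate culture, formed 18 groups of 3. A pretreatment of no agent, 5 uM nicotine or smoke extract at 5 uM nicotine equivalent was followed 2 h later by no therapy, 6 Gy of gamma radiation or 1 uM cisplatin. Cells were then harvested after 2 h or 24 h. Groups without pretreatment or therapy are called untreated. Cultures sat on several plates treated concurrently; which plate held which culture is not used here, and its part in the results was not tested.

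A double-strand break is bound within moments by Ku, the ring formed by the XRCC5 and XRCC6 proteins, which recruits the kinase DNA-PKcs, encoded by PRKDC. The XRCC4 protein then holds DNA ligase IV, encoded by LIG4, which seals the ends. ATM is switched on at breaks and phosphorylates CHK2, encoded by CHEK2, whereas ATR answers to single-stranded DNA and phosphorylates CHK1, encoded by CHEK1. The TP53BP1 protein gathers on chromatin around a break and shields its ends from resection. These proteins act largely through phosphorylation and assembly at the lesion, which arrays of transcripts do not measure.

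Radiation and smoke extract left their known transcript marks. Mean CDKN1A, the gene of the p21 inhibitor of cyclin-dependent kinases, was higher after radiation by 1.13 at 2 h and by 0.87 at 24 h on the log2 scale. With cisplatin CDKN1A differed by -0.10 at 2 h and by 0.25 at 24 h (limma adjusted p = 0.104 at 24 h). MDM2, the other check of therapy, differed by 0.12 with cisplatin at 24 h (limma adjusted p = 0.320). Cisplatin thus passed neither check, and no mark was set for nicotine. Mean CYP1A1, a target of the aryl hydrocarbon receptor, was higher with smoke extract by 3.34 at 2 h and by 4.19 at 24 h. Among epithelial markers, KRT8, KRT18 and KRT19 averaged 11.96, 11.26 and 11.54, while EPCAM at 5.28 and CDH1 at 5.07 lay below the 95th percentile, 6.76, of a background set of olfactory receptor, bitter taste receptor and hair keratin-associated genes, called the silent family here. Of leukocyte markers PTPRC averaged 3.40 and CD68 9.41. All 5 endothelium markers lay below that percentile, as did 3 of 5 fibroblast markers. The mean of the 453 silent-family genes ran from 4.66 to 5.15 over the arrays. In it 4 arrays lay more than 0.15 from their group's median: replicate 3 of cisplatin at 2 h, replicate 3 of cisplatin with smoke extract at 2 h, replicate 2 of nicotine at 24 h and replicate 3 of radiation with smoke extract at 24 h.

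Levels are deposited log2 values, and a level says nothing of one gene against another, since each rests on its own probes. CHEK2, with a mean of 6.63 over 54 arrays, was the 1 member below the 95th percentile of the silent genes. The other 9 means ran from 7.25 for LIG4 to 10.81 for XRCC5. Levels of all 10 members differed among the 18 groups by limma's F test with Benjamini-Hochberg adjustment, as did 60.1% of all genes. The smallest adjusted p was 5.35e-13 for CHEK1 and the largest was 0.00682 for LIG4. CHEK1 also had the widest spread of group means, with an SD of 0.30 over the 18 groups against a mean within-group SD of 0.13. ATM had an SD of 0.17 between group means and of 0.17 within groups. With the 18 groups ordered by level, most of the 17 gaps between neighbours were smaller than the spread of the arrays. None exceeded the pooled SD for ATM, ATR, XRCC4, LIG4 and TP53BP1, 1 did for CHEK1, CHEK2 and PRKDC, and 2 did for XRCC5 and XRCC6.

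**Figure D1:**
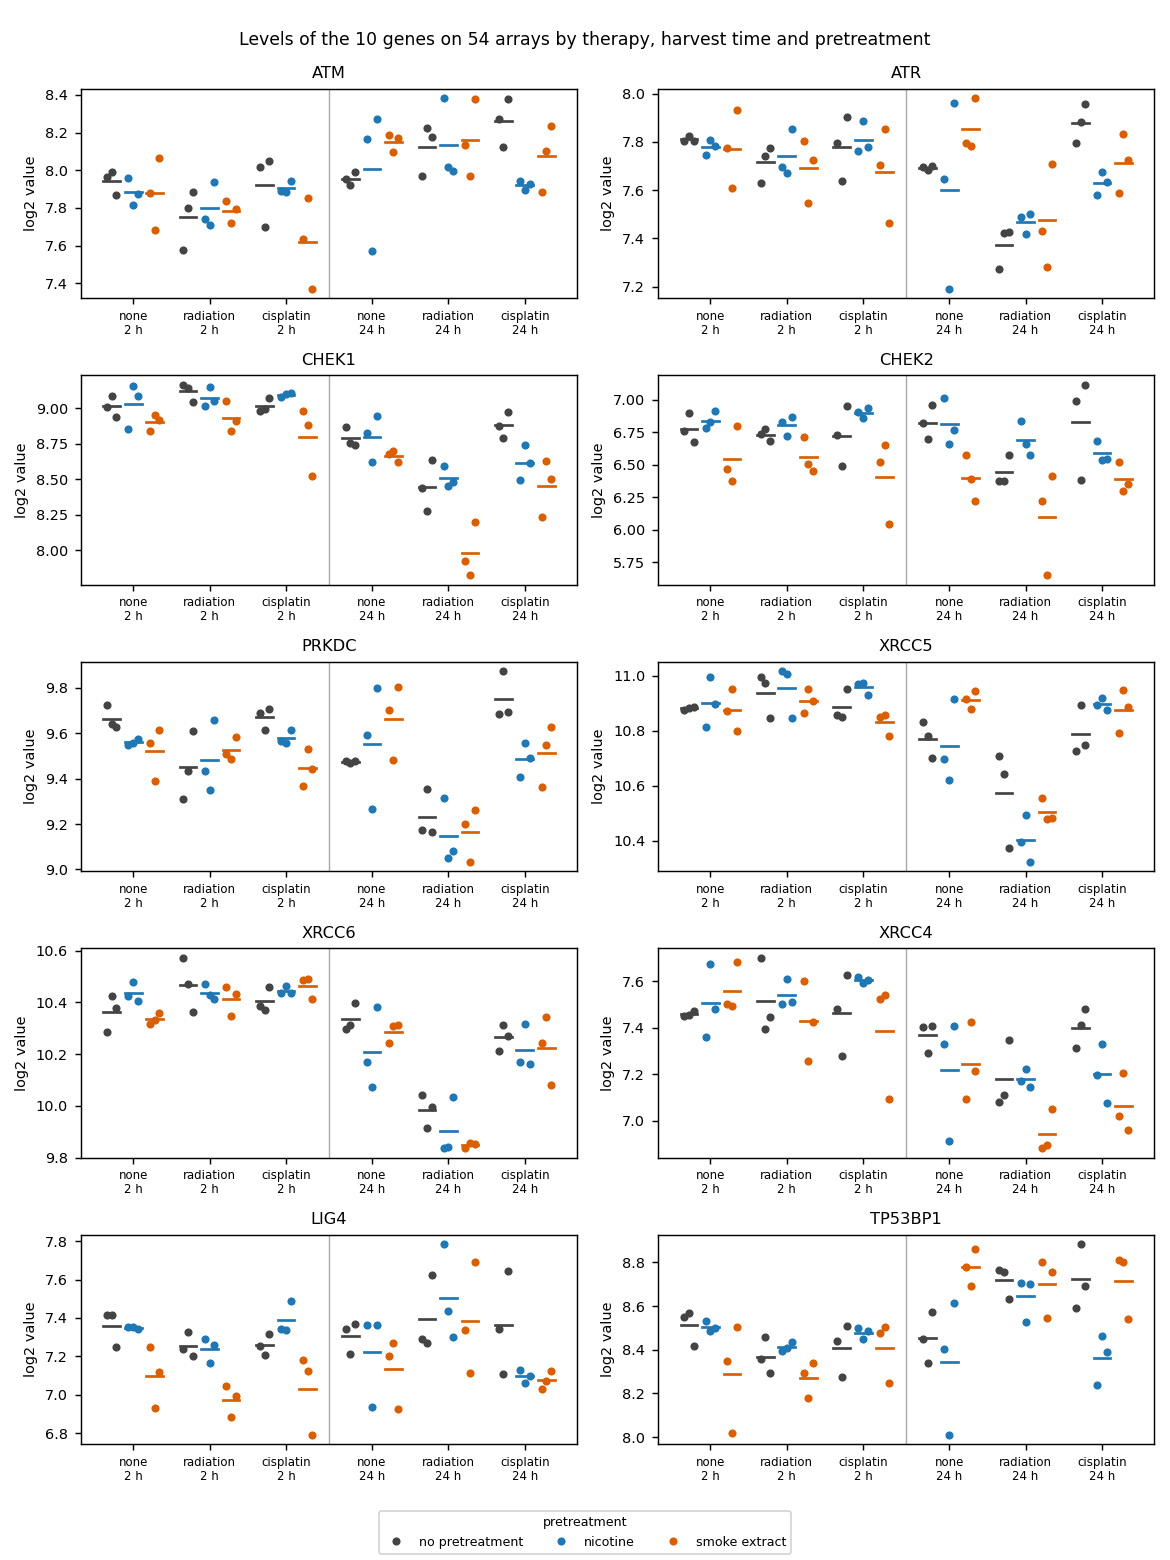
Log2 values of the 10 genes on all 54 arrays, by therapy and harvest time on the horizontal axis and by pretreatment in colour. Points are arrays and short lines are means of 3 arrays. In CHEK1, PRKDC, XRCC5 and XRCC6 the irradiated groups at 24 h are the lowest of the panel apart from cisplatin with smoke extract in CHEK1, which overlaps them. For the XRCC6 gene the irradiated 24 h arrays run from 9.84 to 10.04, below all other arrays.

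At 24 h after radiation, transcripts for 7 of the 10 members were lower and for 2 were higher. In this comparison each effect is the mean over the 3 pretreatments, with 9 irradiated arrays against 9 arrays without therapy, and a gene was called at a limma p adjusted over all genes under 0.05. Of all genes, 32.5% were called, 16.6% as lower and 15.9% as higher. The median difference of the members was -0.27, and that of all genes was 0.03. The largest fall was 1.35-fold. The silent-family mean averaged 4.97, 4.98 and 4.97 in the irradiated groups without, with nicotine and with smoke pretreatment, and 4.90, 4.92 and 4.91 in their controls; its part in the results was not tested beyond the covariate fits given here.

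Among the apical kinases, ATR and PRKDC fell and ATM did not pass the test. PRKDC ran from 9.03 to 9.35 with a median of 9.17 in irradiated arrays, and from 9.26 to 9.80 with a median of 9.48 in the arrays without therapy. Of the 9 irradiated arrays, 7 lay below every array without therapy. The difference was -0.38 ± 0.06 (SE; adjusted p = 2.28e-07). ATR ran from 7.27 to 7.71 with a median of 7.43 after radiation, and from 7.19 to 7.98 with a median of 7.70 without. The arms overlapped: replicate 2 of nicotine, one of the 4 arrays apart in the silent genes, held the lowest value of all, and the highest irradiated array, replicate 3 of radiation with smoke extract, lay above the 3 untreated arrays. The ATR difference was -0.28 ± 0.07 (adjusted p = 0.000705), and -0.38 without the 4 arrays. ATM, the kinase most directly tied to radiation-induced breaks, ran from 7.97 to 8.38 after radiation and from 7.57 to 8.27 without. Its difference was 0.10 with a 95% interval from -0.05 to 0.25 (adjusted p = 0.324). Without the 4 arrays the ATM difference was -0.01, and with the silent-family mean as a covariate it was 0.17 (adjusted p = 0.0114).

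The checkpoint kinases below them both fell. CHEK1 had the largest fall of the 10, with a median of 8.44 and a range from 7.82 to 8.63 after radiation, against a median of 8.74 and a range from 8.62 to 8.95 without. Of 9 irradiated arrays, 8 lay below the whole other arm. The difference was -0.44 ± 0.06 (adjusted p = 3.81e-08). CHEK2 ran from 5.65 to 6.84 after radiation with a median of 6.42, and from 6.22 to 7.01 without, with a median of 6.70. These arms overlapped widely, and the difference was -0.27 ± 0.09 (adjusted p = 0.0148). The CHEK2 call was lost without replicate 2 of radiation with smoke extract, its lowest array, where the difference was -0.19 (adjusted p = 0.0727), and in cells without pretreatment, where it was -0.38 (adjusted p = 0.0685).

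Both Ku genes fell, and XRCC6 was the 1 member whose arms did not overlap. The share of all genes with such separate arms is not given here. XRCC6 arrays ran from 9.84 to 10.04 with a median of 9.85 after radiation, and from 10.07 to 10.40 with a median of 10.31 without. The difference was -0.36 ± 0.04 (adjusted p = 6.61e-11). XRCC5 arrays ran from 10.32 to 10.71 with a median of 10.48 after radiation, and from 10.62 to 10.95 with a median of 10.83 without. In XRCC5 7 of the 9 irradiated arrays were below the other arm, and the difference was -0.31 ± 0.04 (adjusted p = 1.15e-08). The calls of ATR, CHEK1, XRCC5 and XRCC6 were kept under all 27 alternative settings, 18 of which left out 1 array.

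The ligation pair moved in opposite directions. XRCC4, the scaffold, ran from 6.88 to 7.35 with a median of 7.11 after radiation and from 6.91 to 7.42 with a median of 7.33 without. The arms overlapped, and the XRCC4 difference was -0.18 ± 0.07 (adjusted p = 0.0349), or -0.12 (adjusted p = 0.0744) with the silent-family mean as a covariate. LIG4, its ligase, ran from 7.12 to 7.78 with a median of 7.34 after radiation and from 6.93 to 7.37 with a median of 7.27 without. In LIG4 4 irradiated arrays exceeded the whole other arm, and the difference was 0.21 ± 0.07 (adjusted p = 0.0238). TP53BP1 ran from 8.53 to 8.80 with a median of 8.71 after radiation and from 8.01 to 8.86 with a median of 8.57 without. Its arms overlapped throughout, and the difference was 0.16 ± 0.06 (adjusted p = 0.0363).

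Each of these 3 calls was lost when certain single arrays were left out. Leaving out 1 of 10 arrays ended the XRCC4 call, with differences from -0.17 to -0.14 and adjusted p from 0.0560 to 0.101. Those arrays, all at 24 h, were untreated replicates 1 and 3, nicotine 1 and 3, smoke extract 2, radiation 1 and 2, radiation with nicotine 3, and radiation with smoke extract 1 and 2. Leaving out 1 of 6 arrays ended the LIG4 call, with differences from 0.16 to 0.19 and adjusted p from 0.0515 to 0.0842. They were untreated 2, nicotine 2, smoke extract 3, radiation 3, radiation with nicotine 1, and radiation with smoke extract 3. Leaving out 1 of 11 arrays ended the TP53BP1 call, with differences from 0.11 to 0.16 and adjusted p from 0.0507 to 0.146. They were untreated 1 and 2, nicotine 2, smoke extract 1 and 2, radiation 1 and 2, radiation with nicotine 1 and 3, and radiation with smoke extract 1 and 3. In cells without pretreatment none of the 3 passed, with 0.09 for LIG4 (adjusted p = 0.712), -0.19 for XRCC4 (adjusted p = 0.276) and 0.26 for TP53BP1 (adjusted p = 0.0726). When only the compared groups were fitted the adjusted p was 0.108 for LIG4, 0.0768 for XRCC4 and 0.101 for TP53BP1. Without the 4 arrays apart in the silent genes, 7 members were lower and 0 were higher: LIG4 differed by 0.11 (adjusted p = 0.182) and TP53BP1 by 0.10 (adjusted p = 0.161).

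**Figure D2:**
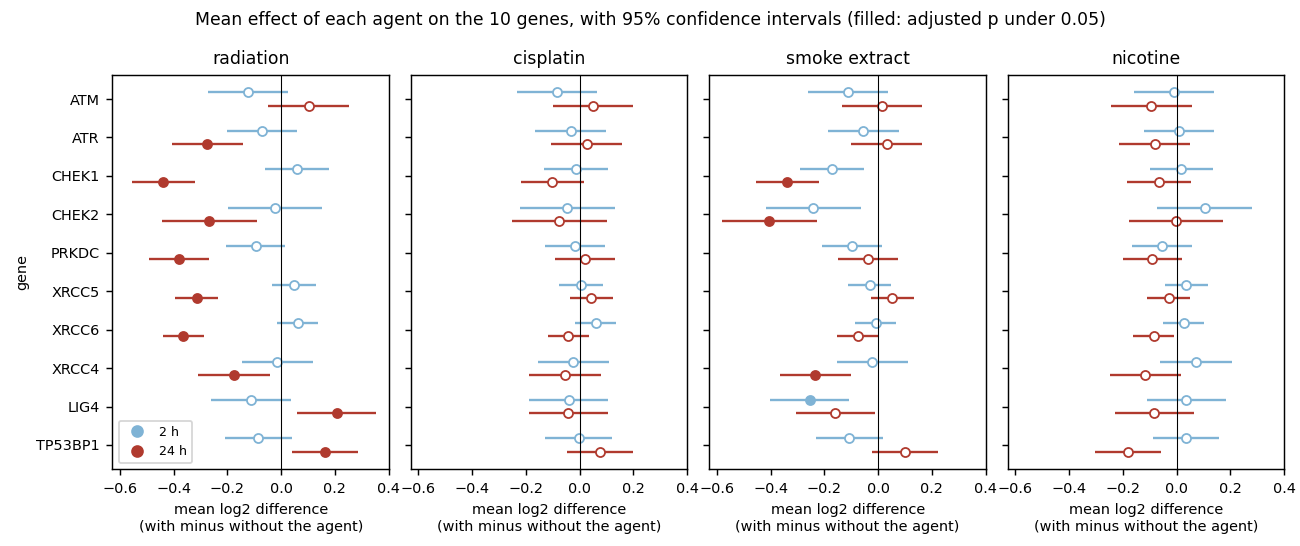
Mean log2 difference of each gene with minus without radiation, cisplatin, smoke extract and nicotine, at 2 h (blue) and 24 h (red), over 9 arrays in each arm. Lines are 95% confidence intervals of the limma fit and filled points have an adjusted p under 0.05. Filled points appear for 9 genes with radiation at 24 h, for 3 with smoke extract at 24 h and for LIG4 with smoke extract at 2 h, and there are none for cisplatin or nicotine.

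At the early harvest no such fall was detected. At 2 h none of the 10 members passed the test for radiation, 0 had an unadjusted p under 0.05, and 1.35% of all genes were called. The early differences ran from -0.12 for ATM to 0.06 for XRCC6. Of the 13 downstream targets and brakes, 3 had risen at that time, CDKN1A by 1.13, PPM1D by 0.77 and MDM2 by 0.59, and 2 had fallen, WEE1, which encodes a kinase that restrains entry into mitosis, by 0.77 and PLK1 by 0.29. Whether the radiation effect changed between harvests was tested directly, as its value at 24 h minus its value at 2 h, and 6 members were called where 23.4% of all genes were, 12.3% as lower and 11% as higher. The effect was lower at 24 h by -0.50 ± 0.08 for CHEK1, -0.43 ± 0.05 for XRCC6, -0.36 ± 0.06 for XRCC5 and -0.29 ± 0.08 for PRKDC. It was higher by 0.32 ± 0.10 for LIG4 and by 0.25 ± 0.09 for TP53BP1. The TP53BP1 call was lost without any 1 of 6 arrays, with adjusted p from 0.0534 to 0.0719. Those were smoke extract 3 and radiation with smoke extract 2 at 2 h, and untreated 2, nicotine 2, smoke extract 2 and radiation with smoke extract 1 at 24 h. Without the 4 arrays apart in the silent genes the LIG4 value was 0.22 (adjusted p = 0.0628). The ATR difference of -0.20 did not pass (adjusted p = 0.112), and was -0.31 (adjusted p = 0.000612) without those 4 arrays.

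In untreated cells no member was called between 2 h and 24 h. CHEK1 in untreated cells had values of 9.01, 9.09 and 8.94 at 2 h and of 8.87, 8.75 and 8.74 at 24 h. The CHEK1 arrays did not overlap, and the difference was -0.22 ± 0.10 (adjusted p = 0.312). Arrays did not overlap in 5 of the 10 members in this comparison, and the share of all genes is not given here. CHEK1 was the 1 member with an unadjusted p under 0.05, and 1.92% of all genes were called. When arrays of these 2 groups alone were fitted, CHEK1 (adjusted p = 0.0150) and PRKDC at -0.19 (adjusted p = 0.0168) would be called. Each radiation effect above was taken against arrays of the same hour.

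Radiation was then examined within each pretreatment, with 3 arrays against 3. CHEK1 in cells without pretreatment had values of 8.87, 8.75 and 8.74 without radiation and of 8.44, 8.28 and 8.63 with it. In the presence of nicotine it had 8.83, 8.62 and 8.95 without radiation and 8.60, 8.45 and 8.48 with it. In the presence of smoke extract it had 8.67, 8.70 and 8.62 without radiation and 7.92, 7.82 and 8.20 with it. No irradiated array reached its control arm in any of the 3 comparisons. Arrays did not overlap in 6, 3 and 6 of the 10 members there, and the share of all genes is not given here. The CHEK1 differences were -0.34 ± 0.10, -0.29 ± 0.10 and -0.68 ± 0.10, with adjusted p of 0.0108, 0.0444 and 1.10e-06. The last, a fall of 1.61-fold, was the largest of any member within a pretreatment.

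XRCC6 fell in each setting, by -0.35, -0.30 and -0.44 ± 0.07 with no, nicotine and smoke pretreatment, and its arrays did not overlap in any of them. XRCC5 differed by -0.20, -0.34 and -0.41 ± 0.07 in the same order, and PRKDC by -0.24, -0.40 and -0.50 ± 0.10. PRKDC did not pass without pretreatment (adjusted p = 0.0634) and passed in the other settings. In all, 4 members were called without pretreatment against 21% of all genes, 5 with nicotine against 15.3%, and 5 with smoke extract against 14.2%. Counts of calls in single settings rest on 3 arrays each. When only the compared groups were fitted, each of the 5 calls with nicotine was lost (adjusted p from 0.110 for XRCC5 to 0.381 for TP53BP1). CHEK1, PRKDC, XRCC5 and XRCC6 with smoke pretreatment, and XRCC6 without pretreatment, kept their calls in all 14 alternatives tried. CHEK1 without pretreatment lost its call without untreated replicate 1 or radiation replicate 2, with differences from -0.30 to -0.26 and adjusted p up to 0.125. XRCC5 without pretreatment lost its call without untreated replicate 1 or 2 or radiation replicate 3, and without the last it differed by -0.10 (adjusted p = 0.362). Quantile normalization gave XRCC5 there -0.11 (adjusted p = 0.317), and the call was also lost without a trend (adjusted p = 0.0526) and with only the compared groups (adjusted p = 0.168). ATR without pretreatment, at -0.32, lost its call in each of 6 omissions but that of radiation replicate 3, with differences from -0.34 to -0.27. With nicotine, CHEK1 lost it without nicotine replicate 1 or 3 or radiation with nicotine replicate 2 or 3, with differences from -0.28 to -0.22. TP53BP1 with nicotine, higher by 0.30, lost its call without nicotine replicate 1 or 2 or radiation with nicotine replicate 1 or 3. Without nicotine replicate 2 the TP53BP1 difference was 0.14 (adjusted p = 0.468). ATR with smoke extract, at -0.38, lost its call without smoke extract replicate 3 or radiation with smoke extract replicate 1 or 2, with differences from -0.36 to -0.28. That call was also lost with only the compared groups (adjusted p = 0.112). With all clusters tested, ATR without pretreatment (adjusted p = 0.0528), CHEK1 with nicotine (0.0653) and TP53BP1 with nicotine (0.0683) lost theirs. Without a trend CHEK1 and TP53BP1 with nicotine did too (adjusted p = 0.0517 and 0.0528).

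For cisplatin, the other therapy, no member passed the test. None of the 10 was called for the mean over pretreatments at 2 h, where 0.0109% of all genes were called, or at 24 h, where 5.03% were, and 0 had an unadjusted p under 0.05 at either time. At 24 h the differences ran from -0.10 for CHEK1 to 0.08 for TP53BP1. The 95% interval of CHEK1 reached from -0.22 to 0.02, and that of XRCC6 from -0.12 to 0.03, which do not reach the -0.44 and -0.36 estimated with radiation. Cisplatin alone gave the highest group mean of the 18 for ATM, ATR and PRKDC, within the spread of the arrays. Gaps to the next group were 0.10, 0.03 and 0.08, below the pooled SDs of 0.17, 0.14 and 0.12. The silent-family mean was 4.82 there and 4.90 in untreated cells at 24 h, and its part was not tested. PRKDC after cisplatin alone had 9.68, 9.87 and 9.69 against 9.48, 9.47 and 9.48 in untreated cells. The PRKDC arrays did not overlap, as held for 4 of the 10 members there, but the difference of 0.27 ± 0.10 did not pass (adjusted p = 0.0908). The share of all genes with separate arrays is not given here. With cisplatin alone 0 members were called and 3 had an unadjusted p under 0.05, against 3.8% of all genes called.

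The therapies differed directly at 24 h. Radiation minus cisplatin was called for 6 members against 24.2% of all genes, with 5 lower after radiation, where 12.8% of all genes were, and LIG4 higher, where 11.3% were. PRKDC differed by -0.40 ± 0.06, XRCC5 by -0.36 ± 0.04 and XRCC6 by -0.32 ± 0.04, and in these 3 genes no irradiated array reached the lowest cisplatin array. How common such separation was among all genes is not given here. CHEK1 differed by -0.34 ± 0.06 and ATR by -0.30 ± 0.07, and these 5 calls were kept in all 26 alternatives. LIG4 differed by 0.25 ± 0.07 (adjusted p = 0.00808), and by the same value with adjusted p = 0.0552 when only the compared groups were fitted. CHEK2 at -0.19 was not called (adjusted p = 0.115). At 2 h none of the 10 was called, 0 had an unadjusted p under 0.05, and 1.03% of all genes were called.

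CHEK1, CHEK2 and XRCC4 were lower at 24 h with smoke extract, averaged over the 3 therapies. These 3 members were the ones called, while 27.7% of all genes were called, 15.7% as lower and 11.9% as higher. The count of 3 in 10 lies near the share of all genes called. The members' median was -0.06. CHEK2 with smoke extract ran from 5.65 to 6.58 with a median of 6.35, against 6.38 to 7.11 with a median of 6.70 without. Of the 9 smoke arrays 5 lay below the whole other arm, and the difference was -0.40 ± 0.09 (adjusted p = 0.000357). CHEK1 ran from 7.82 to 8.70 with a median of 8.50, against 8.28 to 8.97 with a median of 8.75. Its arms overlapped, and it differed by -0.34 ± 0.06 (adjusted p = 1.22e-05). XRCC4 ran from 6.88 to 7.42 with a median of 7.05, against 7.08 to 7.48 with a median of 7.35, a difference of -0.23 ± 0.07 (adjusted p = 0.00610). XRCC5 and XRCC6 differed by 0.05 and -0.08, with adjusted p of 0.328 and 0.134. Of the 5 fibroblast markers 3 were called higher in the same comparison, with a list median of 0.15, and 14 of 16 proliferation genes were called lower; their part in these results was not tested.

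The CHEK1 difference with smoke extract was also taken within each therapy. Without therapy the arrays were 8.67, 8.70 and 8.62 with smoke extract and 8.87, 8.75 and 8.74 in untreated cells, a difference of -0.12 ± 0.10 (adjusted p = 0.511). After radiation they were 7.92, 7.82 and 8.20 with smoke extract and 8.44, 8.28 and 8.63 without, a difference of -0.47 ± 0.10 (adjusted p = 0.000863, or 0.0980 when only the compared groups were fitted), and 8.23% of all genes were called. After cisplatin they were 8.23, 8.63 and 8.50 with smoke extract and 8.88, 8.79 and 8.97 without, a difference of -0.42 ± 0.10 (adjusted p = 0.00230). CHEK1 arrays with smoke extract lay below their controls in all 3 settings. Arrays did not overlap in 7, 3 and 3 of the 10 members there, and the share of all genes is not given here. Whether the CHEK1 differences vary with therapy was tested, and the interaction with radiation was -0.34 ± 0.14 (adjusted p = 0.196). A dependence on therapy was thus not shown in the main fit. XRCC4 without therapy differed by -0.12 (adjusted p = 0.574). The joint F test of pretreatment by therapy at 24 h called 0 members, while 4 had an unadjusted p under 0.05, and 1.22% of all genes were called. CHEK1 had the smallest adjusted p, 0.169, and TP53BP1, PRKDC and XRCC5 followed with 0.224, 0.235 and 0.235. Without the 4 arrays apart in the silent genes this F test called 1 member, and 1261 genes in place of 224. Replicate 3 of radiation with smoke extract is among those 4 arrays. At 2 h that F test called 0 members, with 0 at an unadjusted p under 0.05, and 0% of all genes.

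Radiation with smoke extract gave the lowest of the 18 group means for CHEK1, CHEK2, XRCC4 and XRCC6. For XRCC4 and XRCC6 the gaps to the next mean, 0.12 and 0.06, were smaller than the pooled SDs of 0.14 and 0.08. For CHEK1 the mean with both agents, 7.98 ± 0.19 (SD, n = 3), stood below the next, 8.45 ± 0.18 after radiation alone. CHEK2 averaged 6.10 ± 0.40 there, with arrays of 6.22, 5.65 and 6.42, and the second of these was the lowest of all 54. In cells without therapy smoke extract gave CHEK2 values of 6.58, 6.39 and 6.22 against 6.82, 6.70 and 6.96 in untreated cells, a difference of -0.43 ± 0.15 (adjusted p = 0.0454). TP53BP1 there had 8.78, 8.69 and 8.86 against 8.45, 8.34 and 8.57, a difference of 0.32 ± 0.11 (adjusted p = 0.0304). Neither gene's arrays overlapped, as held for 7 of the 10 members in this comparison. How common such separation was among all genes is not given here. These were the 2 members called, near the share of all genes, 16.1%. The CHEK2 call was lost without any of the 6 arrays but smoke extract replicate 1, with differences from -0.49 to -0.34. It was also lost with all clusters tested (adjusted p = 0.0648) and with quantile normalization (adjusted p = 0.0660). The TP53BP1 call was lost without untreated replicate 1 or 2 or smoke extract replicate 1 or 3, with differences from 0.27 to 0.32.

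After cisplatin, smoke extract was called for 3 members, near the share of all genes, 28.6%. Besides CHEK1 these were CHEK2 at -0.44 ± 0.15 and XRCC4 at -0.34 ± 0.11. The CHEK2 call was lost without cisplatin replicate 1 or 3 or cisplatin with smoke extract replicate 2 or 3, with differences from -0.42 to -0.30, and with only the compared groups (adjusted p = 0.0953). The XRCC4 call was lost without cisplatin replicate 3 or cisplatin with smoke extract replicate 1 or 3, with differences from -0.32 to -0.29, and with only the compared groups (adjusted p = 0.0626). In this comparison the silent genes moved too, from a mean of 4.82 after cisplatin alone to 5.06 with smoke extract. With the silent-family mean as a covariate the differences were -0.23 for CHEK1 (adjusted p = 0.119), -0.08 for CHEK2 (adjusted p = 0.760) and -0.12 for XRCC4 (adjusted p = 0.558). For the mean over therapies at 24 h the 3 members kept their calls under that setting.

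At 2 h smoke extract called 1 member, LIG4, near the share of all genes, 9.28%. LIG4 ran from 6.79 to 7.25 with a median of 7.05 with smoke extract and from 7.20 to 7.41 with a median of 7.25 without. Of the 9 smoke arrays, 8 lay below the whole other arm. The difference was -0.26 ± 0.07 (adjusted p = 0.0153). It was -0.22 without replicate 3 of cisplatin with smoke extract (adjusted p = 0.0594) and -0.23 without replicate 2 of smoke extract (adjusted p = 0.0508). CHEK1 at -0.17 (adjusted p = 0.0551) and CHEK2 at -0.24 (adjusted p = 0.0797) did not pass. The change of the smoke effect between 2 h and 24 h was called for 0 members, with 2 at an unadjusted p under 0.05, against 9.12% of all genes. Without the 4 arrays apart in the silent genes it was called for CHEK1 at -0.26, CHEK2 at -0.32 and XRCC4 at -0.31.

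Nicotine, the alkaloid that the extract was dosed by, called no member at either time. At 2 h 0 members had an unadjusted p under 0.05 and 0% of all genes were called. At 24 h 2 members had an unadjusted p under 0.05 and 5.21% of all genes were called. All 10 differences at 24 h were below 0, the farthest being -0.18 for TP53BP1 (adjusted p = 0.0710); without the 4 arrays apart in the silent genes that of CHEK2 was 0.02. Replicate 2 of nicotine at 24 h was the lowest array of its group in all 10 members, by 0.26 below the group's mean on average. Without nicotine replicate 3, 2 members, TP53BP1 at -0.23 and XRCC6 at -0.11, were called, and without replicate 1 of radiation with nicotine, 1 was. After cisplatin, nicotine gave TP53BP1 values of 8.24, 8.46 and 8.39 against 8.59, 8.88 and 8.69 with cisplatin alone, a difference of -0.36 ± 0.11 (adjusted p = 0.0232). PRKDC there had 9.41, 9.56 and 9.49 against 9.68, 9.87 and 9.69, a difference of -0.26 ± 0.10 (adjusted p = 0.0481). These were the 2 calls in that comparison, near the share of all genes, 17.8%. The PRKDC call was lost in each of 6 omissions, with differences from -0.30 to -0.20. It was also lost without a trend (adjusted p = 0.0541), with all clusters tested (0.0654), with quantile normalization (0.118) and with only the compared groups (0.0626). The TP53BP1 call was lost without cisplatin replicate 2 or 3 or cisplatin with nicotine replicate 1, with differences from -0.37 to -0.28. With only the compared groups it was lost as well (adjusted p = 0.0504). The silent-gene mean was 4.82 with cisplatin alone and 5.03 with nicotine added. With it as a covariate the differences were -0.22 and -0.19, with adjusted p of 0.358 and 0.442.

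Promoter sequence was read for the members that moved together after radiation. RefSeq windows on GRCh38.p14 were listed for 8 of the 10 genes, with none for PRKDC and XRCC5. The 250 bases before the first listed start are printed 5′ to 3′ for CHEK1, XRCC6 and LIG4. CHEK1 had the largest fall and XRCC6 was the member whose arms did not overlap. LIG4 was called the other way, a call kept in 18 of 27 alternatives. Capitals mark exact matches, on either strand, to the motif strings named after the sequences.
CHEK1 (chr11:125625979-125626228, plus strand): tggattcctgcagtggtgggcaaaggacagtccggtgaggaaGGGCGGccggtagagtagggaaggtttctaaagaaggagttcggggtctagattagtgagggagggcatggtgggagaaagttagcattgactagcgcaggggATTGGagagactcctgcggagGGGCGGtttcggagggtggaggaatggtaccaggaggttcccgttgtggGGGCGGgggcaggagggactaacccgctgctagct
XRCC6 (chr22:41621045-41621294, plus strand): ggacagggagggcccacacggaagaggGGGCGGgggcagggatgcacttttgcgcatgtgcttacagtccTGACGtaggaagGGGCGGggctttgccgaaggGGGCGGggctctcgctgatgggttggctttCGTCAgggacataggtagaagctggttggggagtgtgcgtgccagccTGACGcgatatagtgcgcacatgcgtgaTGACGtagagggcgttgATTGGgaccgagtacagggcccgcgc
LIG4 (chr13:108218350-108218599, minus strand): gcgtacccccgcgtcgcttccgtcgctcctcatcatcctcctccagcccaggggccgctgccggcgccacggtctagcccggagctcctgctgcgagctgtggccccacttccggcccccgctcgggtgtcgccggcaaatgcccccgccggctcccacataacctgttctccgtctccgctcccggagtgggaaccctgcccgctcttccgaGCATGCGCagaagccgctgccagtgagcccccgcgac

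The strings searched, each with its reverse complement, were CCAAT for the CCAAT box, GGGCGG for an SP1 site, GCGCATGC for NRF1, TGACG for the core of a cyclic AMP response element, TTTGAA for the cell cycle homology region, and for E2F the string TTCCCGC, the string TTCGCGC, the string TTGCCGC and, as the last, TTGGCGC. The reverse complement of CCAAT and the last E2F string share letters and can overlap. CHEK1 held 3 SP1 strings and 1 CCAAT string. XRCC6 held 3 SP1 strings, 1 CCAAT string and 4 TGACG strings. LIG4 held 1 NRF1 string and none of the others. Among all 27305 windows of this length, 42.3% held the SP1 string, 33% the CCAAT string, 21.7% TGACG and 2.81% the NRF1 string. CCAAT strings were also found for CHEK2, at 3 places, for ATM and for TP53BP1. They were thus in genes that fell, in ATM, which was not called, and in TP53BP1. The call of TP53BP1 as higher was kept in 12 of 27 alternatives. An E2F string, held by 11% of all windows, was in none of the 8, and the cell cycle homology string, held by 13.6%, was found among the 8 in that of ATM. Only the first listed window of a gene was searched. CHEK1 had 3 listed, LIG4 5 and ATM 2, so their other starts are not covered. Such matches describe letters and not bound sites, and a missing string says only that these letters are not in the window.

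The partners of the 10 genes put these changes in context. At 24 h after radiation 37 of 59 partner genes measured were lower and 8 were higher. Of all genes, 16.6% were called lower and 15.9% higher there. Of 19 damage sensors and mediators, 13 fell and 1 rose. CLSPN, which encodes the adaptor claspin that ATR needs to activate CHK1, fell by 1.67 ± 0.11 on the log2 scale. TIPIN, part of the fork protection complex, fell by 0.88 ± 0.09, H2AX, the histone marked at breaks, fell by 0.62 ± 0.08, and RPA2, which coats single-stranded DNA, fell by 0.60 ± 0.07. RAD50, of the complex that tethers ends and activates ATM, rose by 0.34 ± 0.07.

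Targets and brakes of the checkpoint split. Of 13 measured, 5 rose and 6 fell. MDM2, CDKN1A and PPM1D rose by 1.08 ± 0.06, 0.87 ± 0.09 and 0.62 ± 0.06, and TLK2 rose by 0.27 ± 0.05. CDC25A, a phosphatase that CHK1 marks for destruction, fell by 0.88 ± 0.06, PLK1, a mitotic kinase, fell by 0.88 ± 0.04, PKMYT1 fell by 0.74 ± 0.05 and CDC25C fell by 0.67 ± 0.06.

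Repair partners mostly fell. All 7 genes of alternative end joining fell, including POLQ, its polymerase, by 0.83 ± 0.08, PARP2 by 0.78 ± 0.07, FEN1 by 0.59 ± 0.06 and LIG3 by 0.33 ± 0.05. Of 7 genes of end protection and resection choice 6 fell, among them BRCA1 by 0.78 ± 0.07, PAXIP1 by 0.39 ± 0.07, RIF1, which acts with the TP53BP1 protein, by 0.38 ± 0.05 and SHLD2 by 0.36 ± 0.06. The accessory factors of classical end joining were mixed, with 3 of 10 lower and 2 higher. TDP1 fell by 0.66 ± 0.04, PAXX, which binds Ku, by 0.43 ± 0.05 and DCLRE1C, the nuclease Artemis, by 0.24 ± 0.08. APLF, which binds Ku and chromatin, rose by 0.47 ± 0.05 and POLL, a gap-filling polymerase, by 0.22 ± 0.05. Of the 3 genes that mature kinases of the ATM family, 2 fell. Medians of the lists were -0.34 for sensors, -0.09 for targets, -0.01 for accessory factors, -0.36 for end protection, -0.33 for alternative end joining and -0.21 for kinase maturation.

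**Figure D3:**
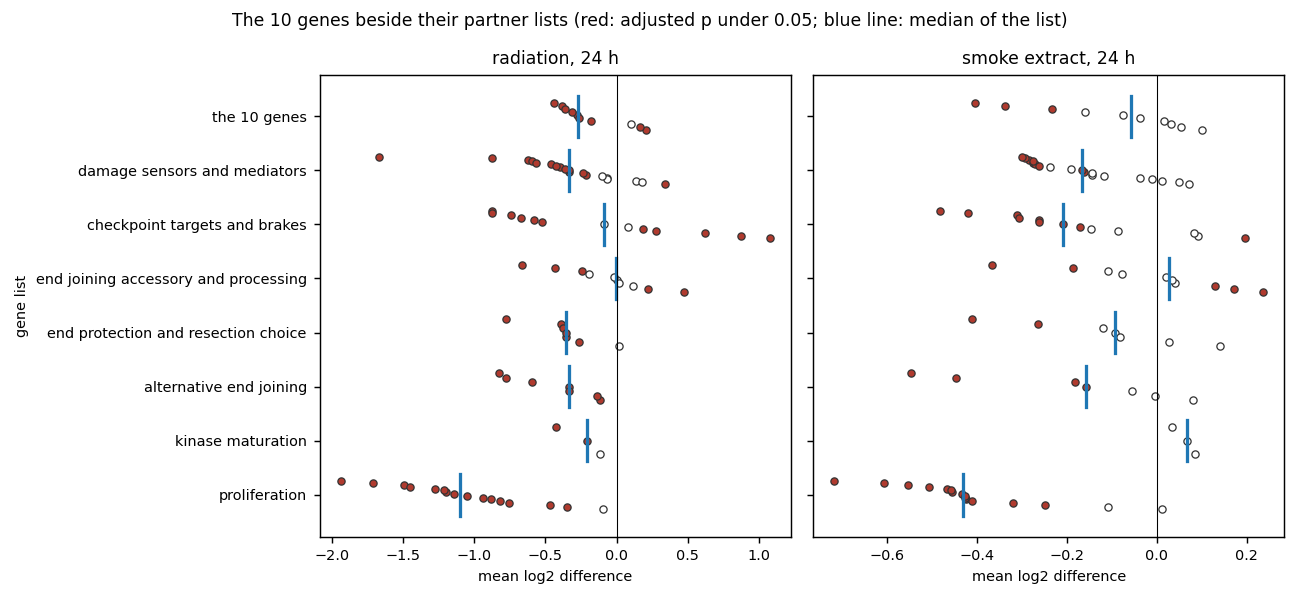
Mean log2 differences at 24 h for radiation (left) and smoke extract (right), with 1 point for each gene of the 10-gene set, of 6 partner lists and of a proliferation list. Red points have an adjusted p under 0.05 and blue lines are medians. After radiation the medians are -0.27 for the 10 genes and -1.10 for the proliferation genes, and the latter reach further left than the 10 genes.

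With smoke extract at 24 h 25 of 59 partner genes were lower and 4 were higher, beside 15.7% and 11.9% of all genes. Of 19 sensors 9 fell, led by MRE11 and MDC1, and 8 of 13 checkpoint targets fell, led by PLK1 at -0.48 ± 0.04 and CDC25C at -0.42 ± 0.06. MDM2 fell by 0.31 ± 0.06, where radiation had raised it. NHEJ1, which encodes the end joining factor XLF, fell by 0.37 ± 0.09, PAXX fell by 0.19 ± 0.05 and TDP2 rose by 0.24 ± 0.05. BRCA1 fell by 0.41 ± 0.07, POLQ by 0.55 ± 0.08 and PARP2 by 0.45 ± 0.07. For cisplatin at 24 h, 2 of 59 partner genes were higher, PPM1D and TLK1, and 2 were lower, RPA2 and PAXX. Of all genes, 5.03% were called there. For nicotine at 24 h, 3 of 59 were lower, while 5.21% of all genes were called. They were NHEJ1 at -0.37 ± 0.09, MDM2 at -0.22 ± 0.06 and XRCC1 at -0.16 ± 0.04. Both counts lie near the share of all genes.

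Genes of DNA replication and division moved with several members. Of 16 proliferation genes, 15 fell at 24 h after radiation with a list median of -1.10, and 14 fell with smoke extract with a median of -0.43. The mean of these genes was 9.29 in untreated cells at 24 h, 8.47 after radiation, 9.16 with smoke extract and 7.69 with both. Over the 18 group means, Pearson's r with that mean was 0.96 for XRCC6, 0.95 for CHEK1, 0.87 for XRCC5 and for XRCC4, 0.77 for PRKDC and for ATR, and 0.68 for CHEK2. It was -0.35 for LIG4, -0.60 for TP53BP1 and -0.64 for ATM. The points share arrays and the 3 irradiated groups at 24 h stood apart, so r was also taken over the other 15. There it was 0.97 for CHEK1, 0.92 for XRCC4, 0.87 for XRCC6, 0.53 for CHEK2, 0.46 for XRCC5, 0.24 for ATR and -0.01 for PRKDC. It was 0.42 for LIG4, whose r was below 0 over 18 groups, -0.46 for TP53BP1 and -0.58 for ATM. The PRKDC, ATR and LIG4 values over 18 groups thus rested on the irradiated groups. The part of cycling cells in the falls was not tested, and in bulk RNA fewer cells of a kind and less transcript per cell cannot be told apart.

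**Figure D4:**
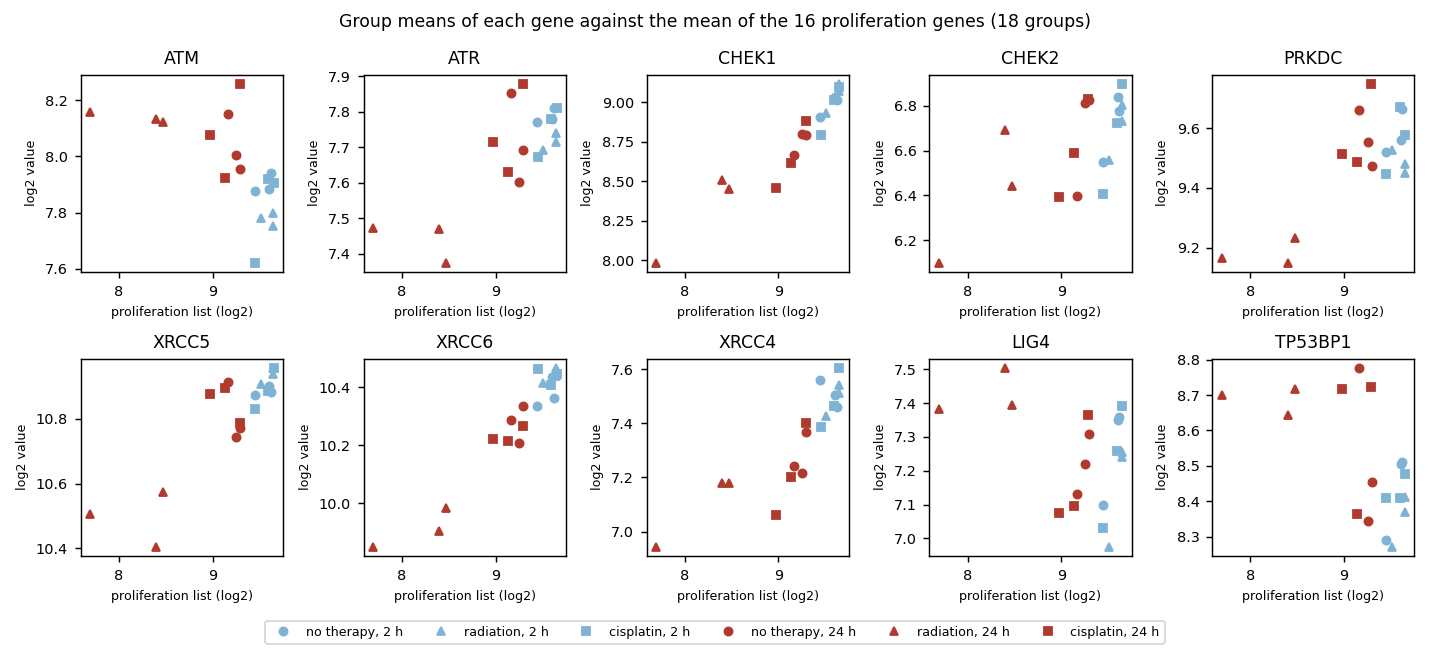
Group mean of each gene (vertical, log2) against the mean of 16 proliferation genes (horizontal, log2), with 1 point for each of the 18 groups, blue at 2 h and red at 24 h, and triangles for radiation. CHEK1 rises along the whole axis (r of 0.95), whereas in PRKDC (r of 0.77 over 18 groups, -0.01 over 15) the 3 irradiated groups at 24 h lie apart from an otherwise flat cloud.

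The genes most alike to each member, by Pearson's r over 18 group means, were chosen from all genes and are given without a test. For CHEK1 they were ORC3, ORC6 and CENPW, with r of 0.99, 0.99 and 0.98. For XRCC6 they were CENPV, MCM2 and ALYREF, also with 0.99, 0.98 and 0.98. XRCC5 was most like TCP1, PARP1 and GGA2 (r of 0.96, 0.95 and 0.95), and XRCC4 most like LYRM7, PEX3 and NVL (0.97, 0.97 and 0.96). ACACA was near both ATR at 0.94 and PRKDC at 0.92. PRKDC was closest to HNRNPA2B1 at 0.93, CHEK2 to RAD54B at 0.93, LIG4 to RAB3C at 0.92, TP53BP1 to MED13 at 0.95 and ATM to VPS13B at 0.96. Of the 45 pairs among the members, 25 had a positive r. CHEK1 with XRCC4 had 0.94, ATR with PRKDC 0.91 and XRCC5 with XRCC6 0.90, while ATM with XRCC6 had -0.72.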

How the data were processed

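The authors deposited 1 table of 33297 transcript clusters by 54 arrays, and its values are taken as log2 because they ran from 0.89 to 13.81. The base is inferred, so folds rest on it. Affymetrix Power Tools 1.15.0 is named in the submitters' processing notes, which here state no method of summarizing or normalizing probes. Symbols came from the platform annotation: 19460 clusters had 1 symbol, 1754 several and 12083 none, and 769 of the 18417 genes had more than 1 cluster. The number of arrays limits the precision.

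Values were used as deposited. limma 3.58.1 in R 4.3.3 fitted 18 group means to all 54 arrays with 36 residual degrees of freedom and a trended eBayes. P-values are two-sided, adjusted by Benjamini-Hochberg over all genes of a comparison, and called under 0.05. Mean effects average 3 strata (9 arrays against 9). The script was tested on simulated data.

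The members, lists and tests were chosen with earlier results of these data known. All 10 members are described. From each partner list up to 4 called genes each way with the largest change could be named, with the 3 genes most alike to a member and CDKN1A, MDM2 and CYP1A1 as checks. Some listed partner genes are not analysed here. Replicates are separate cultures, per the labels. Alternatives were quantile normalization, no trend, all clusters, only the compared groups, a replicate block, genes above the median, the silent-family mean as covariate, cells without the other agent and each array left out. Omitting 4 arrays apart in the silent genes was chosen after seeing the data.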

Additional observations from a re-analysis of the deposited data

Results flagged for a closer look

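The radiation effect of 6 members differed between harvests, by the limma test of the effect at 24 h minus that at 2 h (9 against 9 arrays at each time, p adjusted over all genes). The differences were -0.50 for CHEK1 (adjusted p = 7.30e-06), -0.43 for XRCC6 (2.32e-08), -0.36 for XRCC5 (2.06e-06), -0.29 for PRKDC (0.00473), 0.32 for LIG4 (0.0184) and 0.25 for TP53BP1 (0.0315). The first 4 kept their calls in all 44 alternatives.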

How the results depend on the processing

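Of 128 counts of called members recomputed under alternatives other than single-array omissions, 116 stayed within 1.5 times the reported count. Counts of 0 that stayed 0 are among the 116, and most reported counts were 0. For smoke extract at 2 h, 2 members were called in place of 1 with quantile normalization, with only the compared groups or with genes above the median, 3 with the silent-family covariate and 0 in cells without therapy. For the smoke effect at 24 h minus 2 h, 1 was called in place of 0 with quantile normalization or the covariate and 3 without the 4 arrays. Untreated cells over time gave 2 in place of 0 with only the compared groups, nicotine at 24 h gave 1 in place of 0 with genes above the median, radiation at 24 h gave 4 in place of 9 in cells without pretreatment, and the F test at 24 h gave 1 in place of 0 without the 4 arrays. Leaving out single arrays gave 0 to 3 members for smoke extract at 2 h, 0 to 1 for its change, 0 to 2 for nicotine at 24 h, 0 to 1 for the F test at 24 h and 7 to 9 for radiation at 24 h. No member's called difference reversed its sign. Differences not called under either setting were compared on the side of the threshold alone.

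Deviations of same-numbered replicates had a mean correlation of 0.018 (lowest -0.73, 34.0% of pairs above 0.1), against -0.0095 for different numbers. A mean near 0 cannot exclude that some numbers pair samples, and the main fit used no pairing. With the replicate block, radiation at 24 h called 9 members and 6088 genes, and the block changed no count of called members. Values near the silent genes, as for CHEK2, limit what a difference can show.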
